A study of Mus musculus with 14 samples.

Results

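The collagen genes are described here in mouse lung 6 months after carbon fibres were instilled into the trachea. A gene was counted as a collagen when its symbol was Col, a number, a and a number, and its probes were found through the transcript accession that the scanner files give for each non-control probe, named with a RefSeq gene table. This found 39 genes with 67 probes, of 17178 named genes and 41174 probes on the array. In that table stand 44 collagen genes, and Col6a3, Col6a5, Col12a1, Col20a1 and Col22a1 had no probe matched this way. Probes for them may exist under accessions that the table lacks. Single-colour Agilent arrays measured total RNA of whole lungs from male C57BL/6N mice, each array an independent animal by the study's design text. The VCF group (4 mice) received 200 µg per mouse of carbon fibre before recycling. The CCF group (3 mice) received the same dose of fibre after carbonization, and the RCF group (4 mice) the same dose of fibre after firing. The Ctrl group (3 mice) received phosphate-buffered saline, the vehicle. No group carries a transgene or mutation in the labels, and every group was instilled.

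Collagens are secreted proteins of the extracellular matrix in which 3 chains wind into a triple helix. Types I, III and V form the fibrils that give lung its tensile strength, type IV forms the sheet of the basement membrane under epithelium and endothelium, type VI forms beaded filaments, and type XVII spans the membrane of basal epithelial cells as part of the hemidesmosome. Deposition of fibrillar collagen, mainly by fibroblasts and myofibroblasts, is the hallmark of lung fibrosis, which inhaled durable fibres can cause.

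No collagen probe differed between any fibre group and Ctrl, or between any of the fibre groups, at an adjusted p under 0.05. Values are log2 of the scanner's processed signal minus the 75th percentile of that quantity on the same array, so that 0 is the signal that 75% of the probes do not exceed. A probe is called detected on an array where the scanner software marks its signal as well above background. Probes detected on 3 or more of the 14 arrays were tested, which left 53 collagen probes of 34 genes among 29271 probes in all. Of these 53, 44 were detected on every array. limma fitted the 4 groups together, and p-values were adjusted over all 29271 probes by the Benjamini-Hochberg method. Adjusted p fell under 0.05 for 0 of the 53 collagen probes in VCF against Ctrl (0.0102% of all probes), and for 0 in CCF against Ctrl (0% of all probes) and in RCF against Ctrl (0%). It did so for 0 collagen probes with the 3 fibre groups averaged against Ctrl (0.00342% of all probes), and for 0 in CCF against VCF (0%), in RCF against VCF (0%) and in RCF against CCF (0%). The smallest adjusted p of a collagen probe was 0.336 in VCF, 0.683 in CCF and 0.567 in RCF against Ctrl. The median half-width of a collagen probe's 95% interval was 0.476 on the log2 scale (1.39-fold) for VCF and RCF, and 0.509 (1.42-fold) for CCF. These intervals are not adjusted over probes, and passing took more than their width: the Col17a1 difference of 0.69 in VCF did not pass, so larger changes than this could also be missed with these numbers of animals.

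The median collagen probe stayed close to the median of all probes. The median difference over the 53 probes was -0.051 on the log2 scale in VCF against Ctrl, where all tested probes had a median of 0.014, and 21 collagen probes were higher and 32 lower. In CCF against Ctrl the collagen median was 0.010 against -0.015 for all probes, with 27 higher and 26 lower. In RCF against Ctrl it was -0.014 against 0.012, with 25 higher and 28 lower. Among all tested probes 52.3% were higher in VCF, 47.5% in CCF and 52.3% in RCF. Among the collagen probes these shares were 39.6%, 50.9% and 47.2%. These 3 comparisons share the 3 Ctrl arrays. At an unadjusted p under 0.05, 4 collagen probes were higher in VCF than in Ctrl (6.06% of all probes, against 7.55% of the collagen probes) and 1 was lower (2.2% of all probes). In CCF 2 were higher (3.94% of all probes) and 1 lower (2.65%), and in RCF 2 were higher (2.8%) and 2 lower (2.54%). With the 3 fibres averaged 3 were higher (4.31%) and 1 lower (2.35%). With 53 probes these shares lie near the background.

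Groups that do not overlap were as few. Every VCF array lay above every Ctrl array on 2 collagen probes, both of Col17a1 (6.02% of all probes), and below on 3, of Col1a1, Col4a6 and Col5a2 (2.66%). Every CCF array lay above Ctrl on 0 (4.75% of all probes) and below on 2, of Col5a3 and Col9a1 (5.01%). Both of these probes were detected on 0 of 3 CCF and 2 of 3 Ctrl arrays, so their CCF values are readings near background. Every RCF array lay above Ctrl on 2, again of Col17a1 (4.19%), and below on 4, of Col4a1, Col4a2, Col5a2 and Col9a1 (3.86%). Col9a1 was detected on 1 of 4 RCF and 2 of 3 Ctrl arrays, and was tested only through these. All 11 fibre arrays lay above all Ctrl arrays on 0 collagen probes (0.41% of all probes) and below on 0 (0.321%). Between fibres, CCF lay above VCF on 1 probe, of Col4a5 (1.28%), and below on 1, of Col6a4 (3.99%). RCF lay above VCF on 1, of Col9a3 (1.37%), and below on 0 (2.52%). That Col9a3 probe was detected on 2 of 4 RCF and 0 of 4 VCF arrays. RCF lay above CCF on 2, of Col6a4 and Col26a1 (5.43%), and below on 1, of Col4a5 (3.2%). Col4a2 and Col4a6 were named here after their values were seen, and the Col4a6 probe A_51_P109326 differed by -0.37 in VCF, where its other tested probes, A_52_P447196 and A_52_P516409, differed by 0.11 and 0.12.

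**Figure D1:**
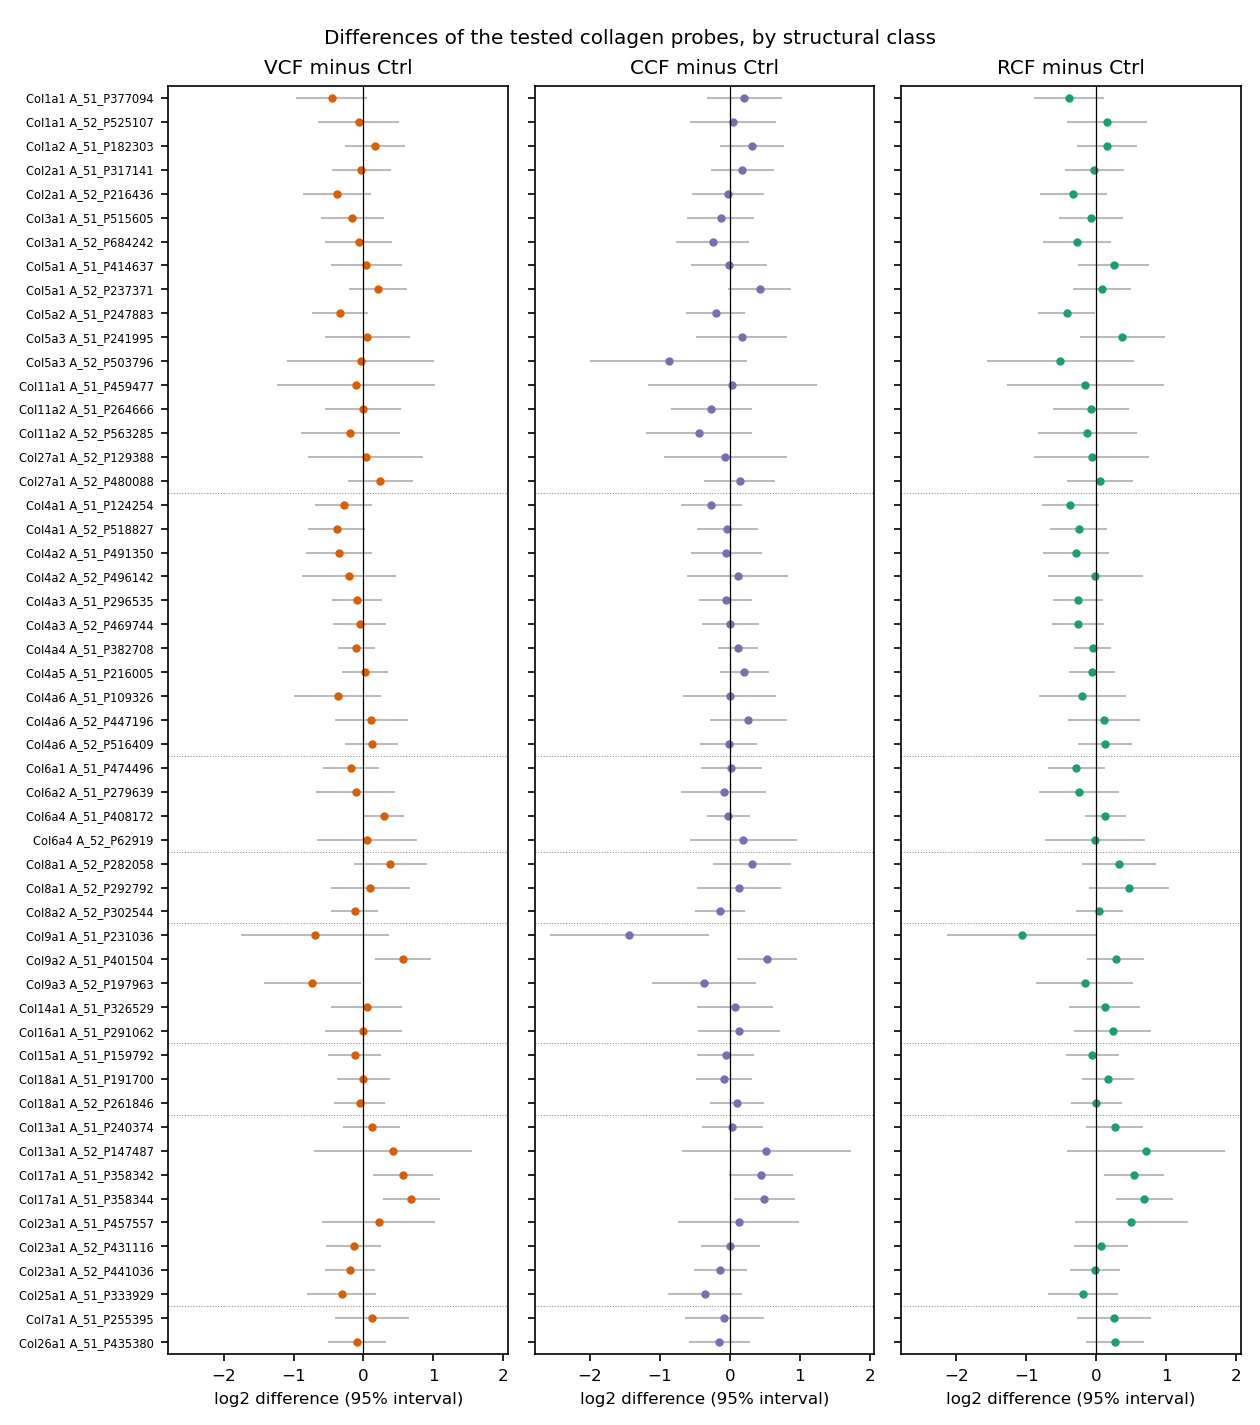
Each row is a tested collagen probe, grouped by structural class between dotted lines, and each panel gives the log2 difference of a fibre group from Ctrl (point) with its 95% interval from limma (bar). Both Col17a1 probes lie right of 0 in all 3 panels (the CCF value of A_51_P358342 is -0.23 with the normexp background correction), and the medians over the 53 probes are -0.051 in VCF, 0.010 in CCF and -0.014 in RCF.

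Marker genes of other tissues were high on several arrays. Scores below are a list's mean log2 difference from the Ctrl mean. All 7 lung markers, epithelial genes such as Sftpc and the endothelial Cldn5, were detected on every array. The red blood cell score, over 7 of 9 listed genes, Hba-a1 and Alas2 among them, was higher on all 11 fibre arrays than on all Ctrl arrays: it ran from 0.967 to 1.60 in VCF, from 0.278 to 1.62 in CCF and from 0.727 to 1.04 in RCF, against -0.437 to 0.276 in Ctrl. The liver score reached 1.56 in VCF, 3.89 in CCF and 3.85 in RCF at its highest, against 0.263 in Ctrl. The thymus score reached 4.06 in CCF and 1.48 in RCF, against 0.415 in Ctrl, and the adipose score reached 2.60 in VCF, against 0.598 in Ctrl. The macrophage score ran from -0.480 to -0.163 in VCF, from -0.791 to -0.405 in CCF and from -0.331 to -0.108 in RCF, against -0.175 to 0.093 in Ctrl. The fibroblast score ran from 0.096 to 0.263 in VCF, from 0.093 to 0.292 in CCF and from 0.027 to 0.218 in RCF, against -0.121 to 0.102 in Ctrl. The nerve score, over 3 genes, ran from 0.127 to 0.502 in VCF, from 0.287 to 0.638 in CCF and from 0.239 to 0.478 in RCF, against -0.225 to 0.237 in Ctrl. The smooth muscle score ran from 0.042 to 0.225 in VCF, from 0.149 to 0.287 in CCF and from -0.015 to 0.300 in RCF, against -0.136 to 0.071 in Ctrl. The cardiac muscle, skeletal muscle and mesothelium scores overlapped Ctrl in every fibre group. With VCF 1, CCF 2, CCF 3 and RCF 1 left out, the arrays highest in the adipose, liver or thymus lists, the collagen median was 0.253 in CCF against Ctrl, resting on 1 CCF array, and still 0 collagen probes passed in any comparison. The part of these tissues and cells in the values below was not tested. In whole lung, fewer cells of a type and less RNA per cell cannot be told apart.

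The 4 slides, each scanned on its own, hold several groups each, with 1 array of each group present. Within a slide, a difference between 2 groups is therefore 1 array minus 1 array. Slide 2 has no CCF array and slide 4 no Ctrl array, so differences from Ctrl within a slide exist for slides 1 and 3, and for slide 2 in VCF and RCF.

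Types I and III make up most of the fibrillar collagen of lung. Col1a1 encodes the alpha 1 chain of type I. Its probe A_52_P525107 read 3.02, 3.40, 2.86 and 3.71 on the 4 VCF arrays, 3.77, 3.21 and 3.11 on the 3 CCF arrays and 3.39, 3.30, 3.71 and 3.50 on the 4 RCF arrays, against 3.66, 3.59 and 2.70 on the 3 Ctrl arrays. The groups overlapped, and the differences from Ctrl were -0.071 (SE 0.26, adjusted p = 0.982) for VCF, 0.044 (SE 0.28, adjusted p = 0.989) for CCF and 0.16 (SE 0.26, adjusted p = 0.997) for RCF on the log2 scale. A second Col1a1 probe, A_51_P377094, did not follow it: it read -0.90, -0.55, -0.46 and -0.44 on the 4 VCF arrays, 0.53, -0.52 and 0.22 on the 3 CCF arrays and -0.44, -0.76, -0.60 and -0.29 on the 4 RCF arrays, against 0.20, -0.30 and -0.29 on the 3 Ctrl arrays. All 4 VCF arrays lay below all 3 Ctrl arrays on this probe, with differences of -0.46 (SE 0.23, adjusted p = 0.668) for VCF, 0.21 for CCF and -0.39 (SE 0.23, adjusted p = 0.980) for RCF. The third Col1a1 probe, A_52_P658611, was detected on 0 of the 14 arrays.

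Col1a2 encodes the alpha 2 chain that pairs with Col1a1 in type I. It read 5.18, 5.38, 4.91 and 5.40 on the 4 VCF arrays, 5.60, 5.37 and 5.14 on the 3 CCF arrays and 5.08, 5.48, 5.51 and 4.74 on the 4 RCF arrays, against 4.98, 5.20 and 4.98 on the 3 Ctrl arrays. The mean was higher than Ctrl in all 3 fibre groups, by 0.16 (SE 0.20, adjusted p = 0.925) in VCF, 0.31 (SE 0.21, adjusted p = 0.822) in CCF and 0.15 (SE 0.20, adjusted p = 0.997) in RCF, and the groups overlapped. Col3a1, the sole chain of type III, read 4.18, 4.09, 4.50 and 4.69 on the 4 VCF arrays, 4.65, 4.15 and 4.38 on the 3 CCF arrays and 4.42, 4.29, 4.35 and 4.76 on the 4 RCF arrays, against 4.49, 4.92 and 4.16 on the 3 Ctrl arrays. Its differences from Ctrl were -0.16 (SE 0.21, adjusted p = 0.933), -0.13 (SE 0.22, adjusted p = 0.953) and -0.073 (SE 0.21, adjusted p = 0.997) for VCF, CCF and RCF in that order. Most fibre arrays lay inside the range of the Ctrl arrays. The second Col3a1 probe, A_52_P684242, was detected on 5 of 14 arrays.

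**Figure D2:**
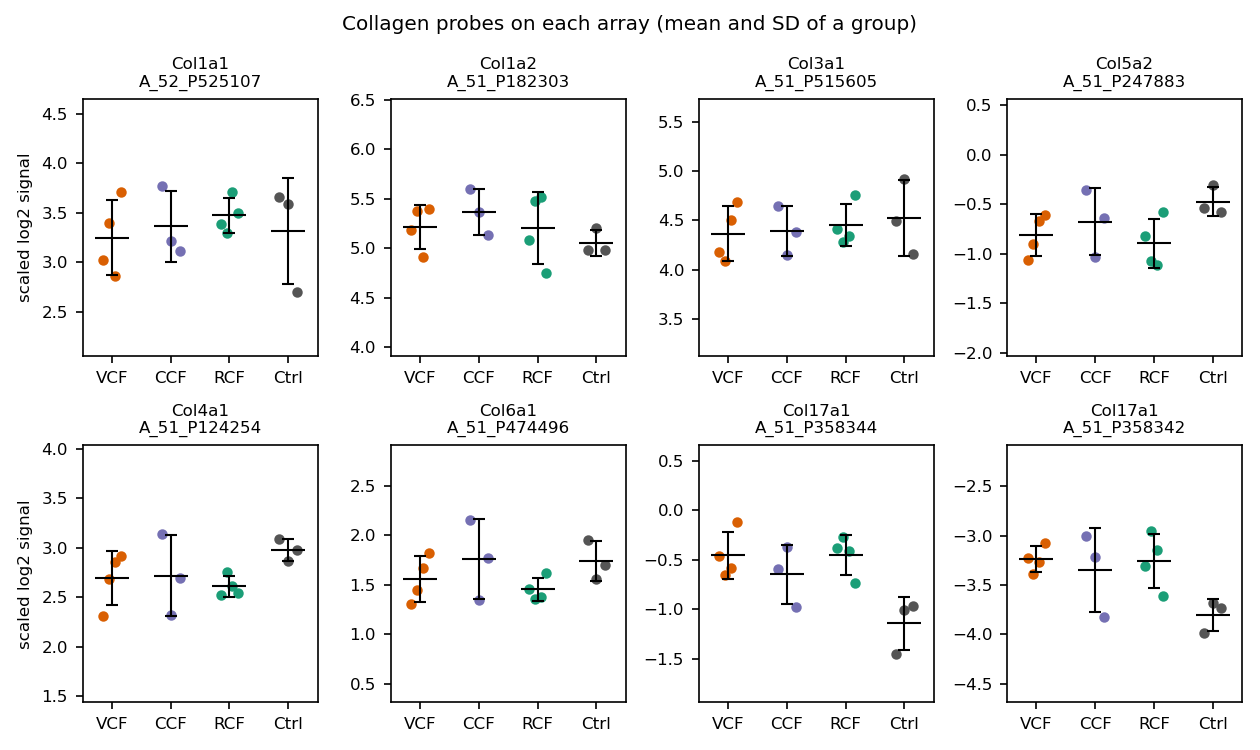
Each point is the scaled log2 signal (0 is the array's 75th percentile) of 1 array, with the group mean and SD as bars, for 8 collagen probes in VCF, CCF, RCF and Ctrl. Every panel spans the same number of log2 units, and the fibre groups overlap Ctrl except on both Col17a1 probes in VCF and RCF, on Col5a2 in VCF and RCF, and on Col4a1 in RCF.

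The windows just before the annotated starts of Col17a1, Col1a2, Col3a1 and Col6a1 are printed to set Col17a1, on which every VCF and RCF array lay above every Ctrl array, beside fibrillar and beaded-filament genes whose groups overlapped Ctrl. They are RefSeq sequence of build GRCm38.p6, the 250 bases before the start, 5′ to 3′ on the gene's strand. Capitals mark the CCAAT box on either strand, the GC box spelled GGGCGG on either strand, and the core TATAAA of the TATA box on either strand.
Col17a1 (chr19:47692043-47692292, minus strand): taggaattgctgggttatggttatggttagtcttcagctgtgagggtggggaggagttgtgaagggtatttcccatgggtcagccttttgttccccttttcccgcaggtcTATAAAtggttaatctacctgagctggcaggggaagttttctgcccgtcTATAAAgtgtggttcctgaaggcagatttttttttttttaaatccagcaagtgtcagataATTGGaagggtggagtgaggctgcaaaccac
Col1a2 (chr6:4505368-4505617, plus strand): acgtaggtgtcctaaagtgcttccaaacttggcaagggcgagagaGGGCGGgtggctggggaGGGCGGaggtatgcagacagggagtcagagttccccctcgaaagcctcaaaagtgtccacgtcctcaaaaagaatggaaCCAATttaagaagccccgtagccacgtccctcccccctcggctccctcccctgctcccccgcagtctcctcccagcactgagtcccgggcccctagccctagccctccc
Col3a1 (chr1:45311288-45311537, plus strand): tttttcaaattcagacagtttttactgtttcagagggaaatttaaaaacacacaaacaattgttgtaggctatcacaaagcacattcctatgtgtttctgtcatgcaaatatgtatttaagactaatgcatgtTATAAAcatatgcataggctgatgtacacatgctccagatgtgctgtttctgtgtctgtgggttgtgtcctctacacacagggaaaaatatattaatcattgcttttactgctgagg
Col6a1 (chr10:76726045-76726294, minus strand): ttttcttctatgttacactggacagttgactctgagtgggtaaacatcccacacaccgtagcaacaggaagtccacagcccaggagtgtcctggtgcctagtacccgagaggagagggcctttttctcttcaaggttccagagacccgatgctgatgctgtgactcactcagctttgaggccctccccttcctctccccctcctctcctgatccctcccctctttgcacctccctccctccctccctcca
Col17a1 holds TATAAA at 2 places, Col3a1 at 1, and Col1a2 holds GGGCGG at 2 places. Windows were at hand for 32 of the 39 genes, 35 windows in all. CCAAT stood in 37.1% of them and in 33.8% of all 32851 windows of this length, TATAAA in 14.3% and 12.4%, and GGGCGG in 60.0% and 32.7%. A match describes letters and is not a site.

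Types V and XI are minor chains that regulate fibril diameter. Col5a1, the alpha 1 chain of type V, read 1.04, 1.31, 1.18 and 1.72 on the 4 VCF arrays, 1.81, 0.97 and 1.01 on the 3 CCF arrays and 1.58, 1.29, 1.82 and 1.39 on the 4 RCF arrays on A_51_P414637, against 1.47, 1.36 and 0.98 on the 3 Ctrl arrays. Every group overlapped Ctrl, and the differences were 0.043, -0.0094 and 0.25 for VCF, CCF and RCF. On A_52_P237371 Col5a1 differed by 0.43 (SE 0.21, adjusted p = 0.758) in CCF, and by -0.54 with the normexp background correction, under which the median of all tested probes in CCF was -0.23. Col5a2, the alpha 2 chain, was lower on every VCF and RCF array than on every Ctrl array, the nearest RCF and Ctrl arrays being equal to 2 decimals. It read -1.06, -0.91, -0.67 and -0.60 on the 4 VCF arrays, -0.36, -1.03 and -0.64 on the 3 CCF arrays and -0.82, -1.07, -1.11 and -0.58 on the 4 RCF arrays, against -0.54, -0.30 and -0.58 on the 3 Ctrl arrays. The differences were -0.34 (SE 0.18, adjusted p = 0.702) for VCF, -0.20 (SE 0.20, adjusted p = 0.893) for CCF and -0.42 (SE 0.18, adjusted p = 0.924) for RCF, so none passed. Within slides, VCF minus Ctrl was -0.093, -0.30 and -0.37 on slides 1, 2 and 3 for Col5a2, and RCF minus Ctrl was -0.24, -0.28 and -0.57.

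Over the 17 tested probes of 10 fibrillar genes, 6 were higher and 11 lower in VCF than in Ctrl, with a median of -0.038. In CCF 8 were higher and 9 lower, with a median of -0.0094, and in RCF 6 were higher and 11 lower, with a median of -0.073. These counts take several probes of a gene. At 1 probe per gene 4 were higher and 6 lower in VCF (median -0.036). The counts were 5 and 5 in CCF (median 0.015) and 5 and 5 in RCF (median -0.0096). Col5a3 disagreed between its probes: A_51_P241995 differed by 0.055, 0.17 and 0.38 in VCF, CCF and RCF. Its other probe, A_52_P503796, was detected on 0 of 3 CCF arrays and 2 of 3 Ctrl arrays, so no fold is given. Col2a1, Col11a1 and Col11a2, chains known from cartilage, and Col27a1 gave differences from -0.38 to 0.24 over their tested probes in the 3 fibre groups. This leaves out the CCF values of the Col11a1 probe A_51_P459477 and the Col11a2 probe A_52_P563285, which were detected on 0 of 3 CCF arrays. Both Col24a1 probes were detected on 0 of 14 arrays.

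Type IV collagen is the scaffold of the alveolar and vascular basement membrane, and alpha 1 and alpha 2 chains assemble together in it. Col4a1 read 2.31, 2.69, 2.86 and 2.92 on the 4 VCF arrays, 3.14, 2.32 and 2.69 on the 3 CCF arrays and 2.52, 2.75, 2.61 and 2.55 on the 4 RCF arrays on A_51_P124254, against 3.09, 2.87 and 2.98 on the 3 Ctrl arrays. All 4 RCF arrays lay below all 3 Ctrl arrays, while 1 VCF array lay inside the Ctrl range and 1 CCF array above it. The differences were -0.28 (SE 0.19, adjusted p = 0.800) for VCF, -0.26 (SE 0.20, adjusted p = 0.851) for CCF and -0.37 (SE 0.19, adjusted p = 0.955) for RCF. The second Col4a1 probe, A_52_P518827, differed by -0.38 (SE 0.19, adjusted p = 0.646) in VCF, -0.035 in CCF and -0.25 in RCF. Within slides 1, 2 and 3 that second Col4a1 probe gave -0.28, 0.15 and -0.73 for VCF minus Ctrl. Without the 4 arrays high in adipose, liver or thymus genes, the CCF difference of the first Col4a1 probe was 0.16, resting on 1 CCF array.

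Col4a2 read 1.77, 2.16, 2.22 and 2.41 on the 4 VCF arrays, 2.90, 1.87 and 2.56 on the 3 CCF arrays and 2.08, 2.20, 2.24 and 2.29 on the 4 RCF arrays on A_51_P491350, against 2.70, 2.29 and 2.48 on the 3 Ctrl arrays. Every RCF array lay below every Ctrl array, the nearest pair being equal to 2 decimals, with a difference of -0.29 (SE 0.22, adjusted p = 0.991). The second Col4a2 probe, A_52_P496142, did not show this: its RCF arrays ran from 0.16 to 0.58, inside the Ctrl range of -0.25 to 1.06, and the RCF difference was -0.0095. Col4a3 and Col4a4 are chains of the alveolar and glomerular membranes. Over the 14 arrays Col4a3 ran from 0.32 to 0.97 on A_51_P296535 and from -1.11 to -0.35 on A_52_P469744, and its RCF differences were -0.26 and -0.26. Col4a4 ran from 1.32 to 1.91. Col4a5 had -1.57, -1.46, -1.50 and -1.71 on the 4 VCF arrays, -1.33, -1.40 and -1.41 on the 3 CCF arrays and -1.49, -1.76, -1.80 and -1.51 on the 4 RCF arrays, against -1.96, -1.48 and -1.32 on the 3 Ctrl arrays. All 3 CCF arrays lay above the 4 VCF and the 4 RCF arrays on this probe, with a difference of 0.18 (SE 0.15, adjusted p = 0.943) from VCF and -0.26 (SE 0.15, adjusted p = 0.703) for RCF minus CCF. Of the 11 tested type IV probes, 8 were lower in VCF (median -0.10), 6 in CCF (median -0.0022) and 9 in RCF (median -0.20) than in Ctrl, and 0 passed. At 1 probe per gene, 4 of 6 were lower in VCF (median -0.097), 4 in CCF (median -0.031) and 5 in RCF (median -0.15).

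Type VI collagen links the basement membrane to the fibrils. Col6a1 read 1.31, 1.45, 1.67 and 1.82 on the 4 VCF arrays, 2.16, 1.35 and 1.77 on the 3 CCF arrays and 1.46, 1.36, 1.38 and 1.62 on the 4 RCF arrays, against 1.96, 1.56 and 1.70 on the 3 Ctrl arrays. Its differences were -0.18 (SE 0.19, adjusted p = 0.907) for VCF, 0.019 for CCF and -0.29 (SE 0.19, adjusted p = 0.991) for RCF. Col6a2 differed by -0.11, -0.084 and -0.24, in the same order. Col6a4, which the mouse keeps as an extra type VI chain, read -4.31, -4.45, -4.16 and -4.26 on the 4 VCF arrays on A_51_P408172, -4.65, -4.60 and -4.59 on the 3 CCF arrays and -4.41, -4.52, -4.39 and -4.51 on the 4 RCF arrays, against -4.61, -4.28 and -4.88 on the 3 Ctrl arrays. The 3 CCF arrays lay below the 4 VCF arrays, and the difference was -0.32 (SE 0.13, adjusted p = 0.836) for CCF minus VCF and 0.30 (SE 0.13, adjusted p = 0.592) for VCF minus Ctrl. The other Col6a4 probe, A_52_P62919, gave 0.14 for CCF minus VCF, the opposite sign, and 0.052 for VCF minus Ctrl. Col6a6 was detected on 0 of 14 arrays.

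Chains that assemble together were set against each other over the 14 arrays, in 8 pairs with a 100000-fold permutation test and p adjusted over the 8. Each gene was taken at its tested probe with the highest mean, which for Col1a1 is A_52_P525107. Other probes of these genes were not put to this test. Col4a1 and Col4a2 varied together, with Pearson's r of 0.880 (permutation p = 3.0e-05, adjusted p = 0.00024) and Spearman's rho of 0.846 (permutation p = 0.00035, adjusted p = 0.0028). Without the 2 arrays farthest from the median of Col4a1 r was 0.798, and with slide means removed it was 0.804. Col6a1 and Col6a2 had r of 0.847 (permutation p = 0.00012, adjusted p = 0.00048) and rho of 0.802 (permutation p = 0.00084, adjusted p = 0.0034), with r of 0.729 without the 2 farthest arrays and 0.818 with slide means removed. Col1a1 and Col1a2 had r of 0.437 (permutation p = 0.117, adjusted p = 0.188) and rho of 0.512 (permutation p = 0.0638, adjusted p = 0.141), with r of 0.205 without the 2 farthest arrays. Col4a3 and Col4a4, whose chains assemble with Col4a5, had r of -0.058 (permutation p = 0.844, adjusted p = 0.844) and rho of -0.090 (permutation p = 0.761). The other 4 pairs had r from -0.56 to 0.19 and adjusted p of 0.0748 or more.

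These points share the array's scaling and its mix of tissue, and high correlations were not limited to partner chains. Over the 1357 pairs of tested probes of different collagen genes the median r was 0.077 with a range of -0.76 to 0.92, and 21 pairs (1.55%) had r of 0.8 or more. The highest was Col6a1 with Col4a2 at 0.918. Col16a1 with Col1a1 (A_52_P525107) reached 0.914. Col4a1 and Col4a2 are neighbours on chromosome 8 that are transcribed away from each other, and their RefSeq windows of 300 bases around the starts share 78 bases.

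**Figure D3:**
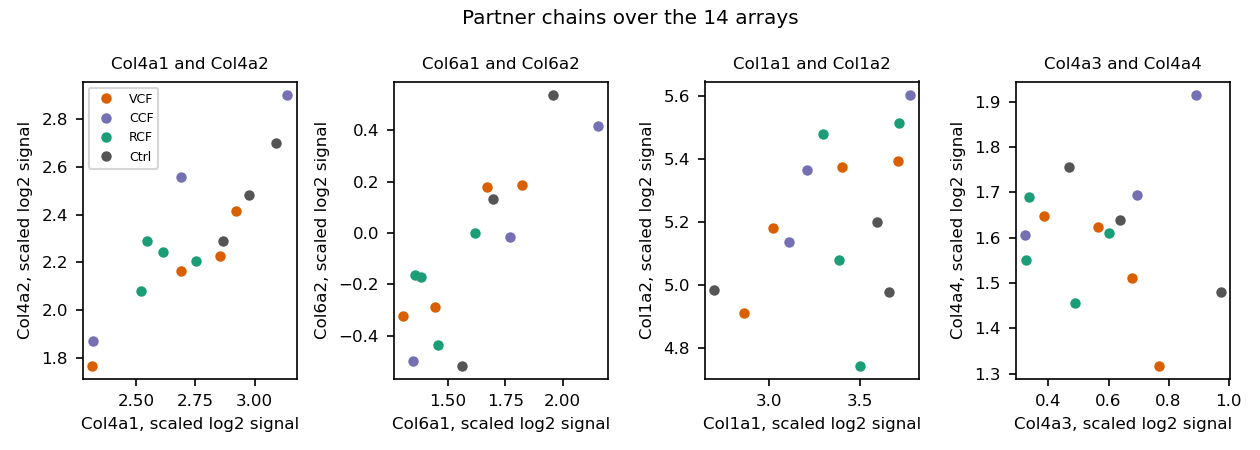
Each point is 1 array, placed by the scaled log2 signal of a chain (horizontal) and its partner (vertical), coloured by VCF, CCF, RCF and Ctrl. Each gene is drawn at its tested probe with the highest mean. The points rise together for Col4a1 with Col4a2 (r = 0.880) and Col6a1 with Col6a2 (r = 0.847), less for Col1a1 with Col1a2 (r = 0.437), and not for Col4a3 with Col4a4 (r = -0.058).

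Type XVII collagen, encoded by Col17a1, is the transmembrane collagen that anchors basal epithelial cells to the basement membrane through hemidesmosomes. Both of its probes were higher on every VCF and every RCF array than on every Ctrl array. Probe A_51_P358344 read -0.46, -0.65, -0.59 and -0.12 on the 4 VCF arrays, -0.60, -0.38 and -0.97 on the 3 CCF arrays and -0.38, -0.27, -0.42 and -0.74 on the 4 RCF arrays, against -1.45, -1.01 and -0.97 on the 3 Ctrl arrays. A single CCF array lay within the Ctrl range, and all 11 fibre arrays lay above the Ctrl mean. Such counts, here and below, are of probes named for their small p, and the share of all probes with this pattern is not given. The means were -0.46 ± 0.24 in VCF (SD, n = 4), -0.65 ± 0.30 in CCF (SD, n = 3) and -0.45 ± 0.20 in RCF (SD, n = 4), against -1.14 ± 0.27 in Ctrl (SD, n = 3). The differences were 0.69 (SE 0.19, adjusted p = 0.336) for VCF, a 1.61-fold level, 0.49 (SE 0.20, adjusted p = 0.730) for CCF, 0.69 (SE 0.19, adjusted p = 0.567) for RCF and 0.62 (SE 0.16, adjusted p = 0.456) for the 3 fibres averaged.

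Probe A_51_P358342 of Col17a1 read -3.23, -3.39, -3.27 and -3.07 on the 4 VCF arrays, -3.01, -3.22 and -3.82 on the 3 CCF arrays and -3.31, -2.96, -3.15 and -3.61 on the 4 RCF arrays, against -3.99, -3.69 and -3.73 on the 3 Ctrl arrays. It gave differences of 0.56 (SE 0.20, adjusted p = 0.432) for VCF, 0.45 (SE 0.21, adjusted p = 0.750) for CCF and 0.55 (SE 0.20, adjusted p = 0.834) for RCF. None of these passes, and the CCF difference of this probe was -0.23 with the normexp background correction. On probe A_51_P358344, VCF minus Ctrl was 0.38, 0.89 and 0.80 within slides 1, 2 and 3, and RCF minus Ctrl was 0.58, 0.27 and 1.04. CCF minus Ctrl was -0.0081 on slide 1 and 0.85 on slide 3. With slide as a block the differences of this Col17a1 probe were 0.64 for VCF, 0.46 for CCF and 0.64 for RCF.

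The other transmembrane collagens are Col13a1, found at cell junctions, Col23a1 and Col25a1. Col13a1 differed by 0.12, 0.035 and 0.27 on A_51_P240374 in VCF, CCF and RCF, and by 0.42, 0.52 and 0.72 on A_52_P147487, whose Ctrl arrays alone ran from -4.46 to -2.24. The 3 Col23a1 probes differed by -0.19 to 0.22 in VCF, -0.14 to 0.13 in CCF and -0.018 to 0.50 in RCF. Col25a1 was lower in the mean of all 3 fibre groups on A_51_P333929, by -0.31, -0.35 and -0.19, with adjusted p of 0.827 or more. That probe was detected on 3 of 4 VCF, 1 of 3 CCF, 4 of 4 RCF and 3 of 3 Ctrl arrays. Its CCF difference therefore rests mostly on readings near background. The other Col25a1 probe, A_52_P78291, was detected on 0 arrays and was not tested. Over the 8 transmembrane probes the median was 0.17 in VCF, 0.081 in CCF and 0.38 in RCF, with 5, 6 and 6 higher. These probes are of 4 genes only. At 1 probe per gene the medians were -0.039 in VCF, -0.051 in CCF and 0.12 in RCF, with 2 of 4 higher in each.

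Fibril-associated collagens sit on the surface of fibrils. Col9a2, a type IX chain known from cartilage, read -4.85, -5.07, -5.05 and -5.40 on the 4 VCF arrays, -5.36, -4.86 and -5.16 on the 3 CCF arrays and -5.39, -5.61, -5.10 and -5.41 on the 4 RCF arrays, against -5.76, -5.88 and -5.32 on the 3 Ctrl arrays. All 11 fibre arrays lay above the Ctrl mean, though the groups overlapped at the highest Ctrl array. The differences were 0.56 (SE 0.19, adjusted p = 0.400) for VCF, 0.53 (SE 0.20, adjusted p = 0.714) for CCF and 0.28 (SE 0.19, adjusted p = 0.991) for RCF. With the normexp background correction the Col9a2 difference in CCF was -0.50. Its partner chains were at the edge of detection. Col9a3 was detected on 0 of 4 VCF, 0 of 3 CCF, 2 of 4 RCF and 2 of 3 Ctrl arrays. The Ctrl array on which it was not detected read -7.33, below all 4 VCF arrays (-7.18 to -6.87), so no fold is given, and the fit did not pass (adjusted p = 0.567). Within slides 1, 2 and 3 VCF minus Ctrl was 0.45, -1.24 and -1.31 for Col9a3. Col9a1 was detected on 0 of 4 VCF, 0 of 3 CCF, 1 of 4 RCF and 2 of 3 Ctrl arrays, and no fold is given. The cartilage score ran from -0.011 to 0.670 in VCF, from -0.322 to 0.525 in CCF and from -0.318 to 0.266 in RCF, against -0.643 to 0.420 in Ctrl. Matn1, Matn3, Cnmd and Ucma of that list were detected on 0 arrays.

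Col14a1, which binds fibrils through decorin, differed by 0.049, 0.069 and 0.12 in VCF, CCF and RCF. Col16a1 differed by -0.0044, 0.13 and 0.24, with Ctrl arrays from 1.53 to 2.61. The 3 Col19a1 probes were not tested, and 1 of them was detected on 2 RCF arrays, with values that overlapped those of the other groups.

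The short-chain collagens of type VIII form a lattice beneath endothelium. Col8a1 differed by 0.38 (SE 0.24, adjusted p = 0.776) in VCF, 0.32 in CCF and 0.33 in RCF on A_52_P282058, and by 0.097, 0.13 and 0.47 (SE 0.26, adjusted p = 0.973) on A_52_P292792. Both Col8a1 probes were thus above Ctrl in each mean, and overlapped it in each group. Col8a2 differed by -0.12, -0.15 and 0.047. Col10a1, the marker of hypertrophic cartilage, was detected on 0 of 14 arrays.

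The multiplexins Col15a1 and Col18a1 lie in vascular basement membrane, and Col18a1 is the source of endostatin. Their 3 tested probes differed by -0.12 to -0.0030 in VCF, -0.084 to 0.099 in CCF and -0.052 to 0.17 in RCF. Col7a1, which forms anchoring fibrils under epithelium, differed by 0.12, -0.079 and 0.26, with Ctrl arrays from -1.54 to -0.52. Col26a1 had its highest group mean in RCF: it read -2.28, -2.51, -2.16 and -2.15 on the 4 RCF arrays and -2.65, -2.64 and -2.79 on the 3 CCF arrays, against -2.10, -2.71, -3.01 and -2.73 on the 4 VCF arrays and -2.72, -2.33 and -2.58 on the 3 Ctrl arrays. All 4 RCF arrays lay above the 3 CCF arrays, with a difference of 0.42 (SE 0.19, adjusted p = 0.621), and the difference from VCF was 0.36 (SE 0.17, adjusted p = 0.962), or -0.040 with the normexp background correction.

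Between fibre forms, Col1a1 on A_51_P377094 gave the smallest p in CCF against VCF and in RCF against CCF. CCF minus VCF was 0.66 (SE 0.23, adjusted p = 0.733), and RCF minus CCF was -0.60 (SE 0.23, adjusted p = 0.563). Its other measured probe, A_52_P525107, differed by 0.11 for CCF minus VCF and 0.11 for RCF minus CCF. At an unadjusted p under 0.05, CCF was higher than VCF on 1 collagen probe (1.19% of all probes) and lower on 1 (4.61%), RCF was higher than CCF on 1 (4.58%) and lower on 1 (3.32%), and RCF differed from VCF on 0 (1.54% of all probes higher, 3.75% lower). The family median was 0.038 for CCF minus VCF, 0.051 for RCF minus VCF and 0.0059 for RCF minus CCF, where all probes had -0.019, -0.014 and 0.0077.

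Probes of 1 gene did not always give differences of the same sign. Of the 17 genes with more than 1 tested probe, all tested probes of the gene had the same sign in 14 for VCF, 7 for CCF and 11 for RCF against Ctrl. Probes of a gene are read on the same animals, so a shared sign is a description and no check of a group difference.

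Enzymes that make and crosslink collagen were measured beside the chains. Of 30 genes listed for synthesis and processing, 25 were tested, 0 passed in any comparison, and 7 were higher and 18 lower in VCF, 12 and 13 in CCF, and 8 and 17 in RCF than in Ctrl. Their median differences were -0.059 in VCF, -0.0070 in CCF and -0.047 in RCF. The 2 galactosyltransferases of collagen hydroxylysine had differences of opposite sign. Colgalt1 read 1.86, 1.97, 2.17 and 2.11 on the 4 VCF arrays, 2.39, 1.81 and 2.30 on the 3 CCF arrays and 2.27, 2.09, 2.07 and 2.19 on the 4 RCF arrays, against 2.41, 2.35 and 2.44 on the 3 Ctrl arrays. All 11 fibre arrays lay below the Ctrl mean of Colgalt1, with -0.29 (SE 0.12, adjusted p = 0.721) for the fibres averaged. Colgalt2 read -0.67, -0.40, -0.78 and -0.31 on the 4 VCF arrays, -0.43, -0.59 and -0.86 on the 3 CCF arrays and -0.27, -0.22, -0.23 and -0.70 on the 4 RCF arrays, against -0.94, -0.78 and -0.98 on the 3 Ctrl arrays. It lay above the Ctrl mean on all 11 fibre arrays, with 0.54 (SE 0.16, adjusted p = 0.637) for RCF and 0.39 (SE 0.14, adjusted p = 0.651) for the fibres averaged. P4hb, the beta subunit of prolyl 4-hydroxylase, differed by -0.29 (SE 0.12, adjusted p = 0.919) in RCF.

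Of 22 genes for matrix proteins and receptors that bind collagen, 19 were tested and 0 passed, with medians of 0.10 in VCF, 0.045 in CCF and -0.036 in RCF. Lum, the fibril-binding proteoglycan lumican, was higher in each group mean, by 0.59 (SE 0.27, adjusted p = 0.607) in VCF, 0.55 (SE 0.29, adjusted p = 0.784) in CCF and 0.63 (SE 0.27, adjusted p = 0.925) in RCF. It read 0.80, 0.24, 0.069 and 0.058 on the 4 VCF arrays, -0.39, 0.86 and 0.27 on the 3 CCF arrays and 0.40, 0.38, 0.34 and 0.17 on the 4 RCF arrays, against -0.69, -0.28 and 0.058 on the 3 Ctrl arrays, so 1 fibre array lay below the Ctrl mean. Without the 4 arrays high in adipose, liver or thymus genes, the Lum difference in CCF was -0.086, resting on 1 CCF array. Itga11, a collagen receptor of fibroblasts, differed by 0.47 (SE 0.18, adjusted p = 0.862) in RCF, Podn, a small proteoglycan, by -0.54 in VCF, and Thbs2, thrombospondin 2, by 0.43 in CCF, or by -0.44 with the normexp background correction.

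Of 17 collagen-degrading enzymes and their inhibitors 16 were tested and 0 passed, with 4 higher and 12 lower in VCF, 7 and 9 in CCF, and 8 and 8 in RCF than in Ctrl. Timp1, an inhibitor of metalloproteinases, read 1.79, 1.36, 2.14 and 2.15 on the 4 VCF arrays, 1.69, 1.48 and 2.38 on the 3 CCF arrays and 1.71, 1.48, 1.59 and 2.55 on the 4 RCF arrays, against 3.10, 3.24 and 2.03 on the 3 Ctrl arrays. All 11 fibre arrays lay below the Ctrl mean of Timp1, with -0.94 (SE 0.30, adjusted p = 0.597) for the fibres averaged, and the Ctrl arrays differed widely among themselves. Within slides 1, 2 and 3 the fibres averaged minus Ctrl was 0.044, -0.89 and -1.56 for Timp1. Mmp12, the macrophage elastase, differed by -0.67 (SE 0.31, adjusted p = 0.600) in VCF, from -1.15 without Ctrl 3 to -0.38 without Ctrl 1, and Mmp13, a collagenase, by -0.71 (SE 0.31, adjusted p = 0.928) in RCF. Mmp8, the neutrophil collagenase, differed by -0.92 with the fibres averaged, and by -0.19 without Ctrl 1. That Ctrl array read 1.85, against -0.044 and -0.63 on the other Ctrl arrays. The neutrophil score, over 8 genes with Mmp8 itself among them, ran from -0.859 to -0.300 in VCF, from -0.382 to 0.232 in CCF and from -1.41 to -0.372 in RCF, against -0.738 to 1.15 in Ctrl. The part of neutrophils in these values was not tested. Timp2, another inhibitor, differed by 0.86 in CCF, by 0.47 without Ctrl 1 and by 0.57 without CCF 2, and within slides 1 and 3 by 0.0021 and 1.28.

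Of 20 genes of profibrotic signalling, all 20 were tested and 0 passed, with medians of 0.040 in VCF, -0.051 in CCF and 0.047 in RCF. Tgfb2, a ligand that drives collagen synthesis in fibroblasts, read -0.086, 0.017, -0.26 and -0.11 on the 4 VCF arrays, -0.47, 0.093 and 0.090 on the 3 CCF arrays and -0.17, -0.14, -0.34 and -0.026 on the 4 RCF arrays, against -0.43, -0.72 and -0.54 on the 3 Ctrl arrays. It was above the Ctrl mean on all 11 fibre arrays, by 0.45 (SE 0.15, adjusted p = 0.401) in VCF, 0.47 (SE 0.16, adjusted p = 0.644) in CCF, 0.39 (SE 0.15, adjusted p = 0.862) in RCF and 0.44 (SE 0.13, adjusted p = 0.559) with the fibres averaged. Postn, a matrix protein of myofibroblasts, differed by 0.30 (SE 0.14, adjusted p = 0.607) in VCF, Smad7, an inhibitor of the TGF-beta pathway, by 0.51 (SE 0.16, adjusted p = 0.637) in CCF, and Pdgfrb, a receptor of pericytes and fibroblasts, by 0.34 (SE 0.16, adjusted p = 0.950) in RCF.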

How the data were processed

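The deposited scanner files hold 14 single-colour (Cy3) arrays, read per the file headers with Agilent Feature Extraction 10.7.3.1, whose processed signal is an intensity after the software's background subtraction. The authors' deposited value table holds log2 values of 27496 probes, 47 of them collagen probes, and 100% of its differences between arrays lay within 0.01 of those computed here. The normalization text of the authors is not given in the sources used here.

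Each array holds 43379 non-control spots, and a further 1639 control spots were left out. Over the 14 arrays, 1649 non-control spots that the software marked as outliers were left out too. Spots of a probe were averaged on the log2 scale, and each array's 75th percentile (724.7 to 1346 signal units) was subtracted. Accessions matched 24844 probes to exactly 1 symbol in a RefSeq table (GRCm38.p6). Scanner flags marked 63.1% to 70.6% of probes as detected per array, and the number of arrays limits the precision.

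limma 3.58.1 in R 4.3.3 fitted 4 group means (10 residual degrees of freedom), with 7 comparisons and Benjamini-Hochberg adjustment over all probes tested. The fit was tested on simulated data. In each comparison the text names up to 4 collagen probes per direction by smallest p, 6 fixed collagen genes at the probe with the highest mean, and 2 genes of each of 4 pathway lists. The other probes are given by range, or by value where their arrays bear on a class, a partner chain or a count of groups that do not overlap. A gene list is scored at 1 probe per gene. Collagen genes, lists and markers were chosen with earlier results of these data known.

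Alternatives were another background correction, normalization, filter, prior, slide and replicate blocks, each array left out, and, after seeing the data, outlier spots kept and 4 arrays left out. Replicate numbers recur in the groups: the correlation of deviations of same-numbered arrays ran from -0.37 to 0.35 over 19 pairs (median 0.051), so they were not taken as pairs. For arrays on the same slide it ran from -0.015 to 0.43 over 18 pairs (median 0.12). For arrays that shared neither it ran from -0.31 to 0.29 over 42 pairs (median -0.065). The main fit has no slide term, and slide enters only as a block in an alternative. Figures were drawn with matplotlib 3.10.9 under Python 3.11.15.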

Additional observations from a re-analysis of the deposited data

Results flagged for a closer look

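In 108 groups of 4 arrays, 1 array stood apart from the other 3 by Dixon's criterion 3 times, where chance alone gives about 1 in 20. Col25a1 (A_51_P333929) read -5.56 on VCF 3, with the other VCF arrays from -6.32 to -6.20. Col11a1 (A_51_P459477) read -8.47 on RCF 3, with the other RCF arrays from -6.73 to -6.37, and it was not well above background there; this probe was so on 2 of 4 RCF arrays. Col5a1 (A_52_P237371) read -4.86 on VCF 1, with the other VCF arrays from -5.56 to -5.48.

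Col19a1 (A_51_P146726), which was not tested, was marked as well above background on 2 arrays, both of the RCF group, and on 0 Ctrl arrays. Its signal did not set RCF apart. The means were -7.14 in RCF, -7.13 in VCF, -7.19 in CCF and -7.39 in Ctrl. The highest array read -6.57 in RCF, -6.91 in VCF, -6.47 in CCF and -6.83 in Ctrl. These are readings near background.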

How the results depend on the processing

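The count of collagen probes that passed was 0 in all 7 comparisons under each alternative that refitted all groups, and in the 6 comparisons fitted on their own groups only; within slides no test was run. Of 109 named differences, 61 changed sign or moved by over 1.5 times when 1 array was left out. Within slides, 35 of 109 on slide 1, 24 of 72 on slide 2, 41 of 109 on slide 3 and 9 of 24 on slide 4 moved by more than the SD within groups. Between 2 groups these differences are 1 array minus 1 array, so the counts cannot tell an effect of slide from the spread of single arrays. Normexp background correction put the median of all tested probes at -0.23 in CCF against Ctrl, -0.27 in CCF against VCF and 0.22 in RCF against CCF. It gave collagen medians of -0.25 for CCF minus VCF and 0.25 for RCF minus CCF. Under it the difference was -0.23 for Col17a1 (A_51_P358342) in CCF, -0.54 for Col5a1 (A_52_P237371) in CCF and 0.57 for RCF minus CCF, -0.15 for Col5a1 (A_51_P414637) in VCF and -0.017 for the fibres averaged. It was -0.50 for Col9a2 in CCF and -0.087 for the fibres averaged, 0.033 for Col9a3 in VCF, -0.44 for Thbs2 in CCF, -0.33 for Col2a1 in CCF minus VCF and -0.040 for Col26a1 in RCF minus VCF.

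Col5a1 (A_51_P414637) in CCF was 0.012 with quantile and 0.029 with cyclic loess normalization. With slide as a block it was 0.14, Col1a1 (A_52_P525107) in VCF was 0.0014, and Col3a1 was 0.070 in CCF and 0.0070 in RCF. With the replicate number as a block, Col1a1 (A_52_P525107) was -0.011 for the fibres averaged and Col5a1 (A_51_P414637) -0.0031 in VCF, and no call changed. Within slide 3 the collagen median was 0.30 for CCF minus VCF.

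Without VCF 1, CCF 2, CCF 3 and RCF 1, which leaves 1 CCF array, the collagen median was 0.25 for CCF minus Ctrl, 0.27 for CCF minus VCF and -0.18 for RCF minus CCF. Col5a1 (A_51_P414637) in CCF was then 0.54, Col4a1 (A_51_P124254) 0.16, Col3a1 0.12 and Lum -0.086. Col1a1 (A_52_P525107) was 0.0048 in VCF, Col6a1 0.012 for the fibres averaged and Col18a1 -0.052 for RCF minus CCF. The cause of these reversals was not tested.

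With each array left out in turn, Col1a1 (A_52_P525107) ran from -0.38 to 0.099 in VCF, -0.26 to 0.21 in CCF, -0.15 to 0.33 in RCF and -0.26 to 0.21 for the fibres averaged. Col3a1 ran from -0.34 to 0.040 in VCF, -0.32 to 0.067 in CCF, -0.26 to 0.13 in RCF and -0.31 to 0.077 for the fibres averaged. Col5a1 (A_51_P414637) ran from -0.10 to 0.14 in VCF, -0.28 to 0.14 in CCF and -0.052 to 0.19 for the fibres averaged, and Col6a1 from -0.18 to 0.22 in CCF.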

Other observations

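Genes of basal epithelium and the hemidesmosome, listed after the Col17a1 values were seen, are given as a description with no test. Of 12 listed genes 11 were measured, and 5 were higher in VCF, 5 in CCF and 2 in RCF than in Ctrl, with median differences of -0.18, -0.027 and -0.17 on the log2 scale. Krt14, a keratin of basal cells, differed by -0.52 (SE 0.29) in VCF, -0.49 (SE 0.31) in CCF and -0.64 (SE 0.29) in RCF. Other genes of the list did not follow Krt14. Trp63 differed by 0.28 (SE 0.47), 0.16 (SE 0.50) and 0.17 (SE 0.47) in the same order. Plec differed by 0.14 (SE 0.27), 0.31 (SE 0.29) and 0.029 (SE 0.27), and Krt5 by -0.18 (SE 0.87), 0.085 (SE 0.93) and -0.35 (SE 0.87). Itga6, the integrin alpha chain of the hemidesmosome, differed by 0.28 (SE 0.20) in VCF, 0.60 (SE 0.21) in CCF and -0.31 (SE 0.20) in RCF, and Itgb4, its partner chain, by -0.30 (SE 0.15), -0.23 (SE 0.16) and -0.16 (SE 0.15).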
